A study of Homo sapiens with 6 samples.

Results

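Genes of fatty acid oxidation were compared between cells labelled HepG2 in which SOX9 was knocked down and their empty virus control. The set held 38 named genes of mitochondrial and peroxisomal fatty acid oxidation, acyl-CoA activation, ketone body metabolism and their regulators. Signals of different probe sets are not comparable, and a gene is represented here by its probe set of highest mean. A gene was taken as measured where a probe set of the expression array was assigned to it and to no other gene. This held for 37 of the 38 genes, out of 18574 genes measured in all, and the exception was ACAD11. The knockdown group was 3 arrays of cells infected with virus that carried a hairpin against SOX9 (shSox9), and the control group was 3 arrays of cells infected with an empty virus. All were grown in DMEM with fetal bovine serum, and each group was described as a clone. A difference between the clones therefore cannot be told apart from an effect of the knockdown. Whether the 3 arrays of a group stand for separate cultures is not stated, so a p-value here reflects spread between arrays alone, which may be technical. HepG2 is an established human liver cancer cell line, and the study asked which cellular pathways differ after knockdown of SOX9, a transcription factor known from liver progenitors and bile ducts. In these bulk samples, fewer expressing cells and less RNA per cell cannot be told apart. One label of the knockdown samples, their description, names empty virus, while their titles, source names and genotypes all name the knockdown.

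Fatty acid oxidation shortens fatty acids by removing acetyl-CoA units. Long-chain fatty acids are first joined to coenzyme A by acyl-CoA synthetases, carried into mitochondria as carnitine esters, and then cycled through an acyl-CoA dehydrogenase, a hydratase, a hydroxyacyl-CoA dehydrogenase and a thiolase. Peroxisomes run a related cycle on very long and branched chains. Hepatocytes use the pathway in fasting, when much of the acetyl-CoA is made into ketone bodies. The nuclear receptor PPARA and its coactivator PPARGC1A (PGC-1 alpha) are known activators of these genes in liver.

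SOX9 itself read 6.91, 7.08 and 6.90 in knockdown arrays, against 8.15, 7.99 and 7.67 in control arrays, on the log2 scale of the deposited values (log2 fold change -0.97, SE 0.13, limma adjusted p = 0.00114). Hepatocyte markers went against the label of the cells. Of 18 listed, 17 were measured and only 2 had a mean log2 signal of at least 5. At limma adjusted p under 0.05, 1 of the 17 was higher in knockdown (5.88%) and 0 were lower. The shares across all genes were 8.41% and 8.35%. Log2 fold changes of the 17 ran from -0.21 to 1.26. ALB averaged 3.37 ± 0.26 in knockdown and 3.14 ± 0.44 in control arrays, AFP 2.61 ± 0.11 and 2.70 ± 0.14, and APOA1 4.60 ± 0.10 and 4.81 ± 0.15 (SD, n = 3 each). The mean over the hepatocyte list lay between 3.76 and 3.95 on knockdown arrays and between 3.61 and 3.89 on control arrays. Lists of 11 leukocyte, 8 endothelial, 8 fibroblast, 7 muscle and 5 adipocyte markers, the other cell types checked, lay between 4.02 and 4.72 on knockdown and between 3.84 and 4.67 on control arrays. The part of these cell types in the results was not tested. RNA quality and spike-in measures were also compared. Poly-A control RNAs (spike-ins) averaged 7.12, 6.79 and 6.93 in knockdown arrays and 6.36, 6.48 and 6.95 in control arrays. GAPDH read higher at its 3′ than at its 5′ end by 0.42, 0.37 and 0.24 in knockdown and by 0.04, 0.03 and 0.26 in control arrays, a measure of RNA degradation or labelling. For beta-actin this ran the other way, from 2.19 to 2.34 in knockdown and from 2.51 to 2.56 in control arrays. Exact two-sided permutation tests gave p = 0.3, 0.2 and 0.1 for these measures, where 0.1 is the smallest that 3 against 3 arrays allow. Of these, the spike-in level alone was tried as a covariate, and the part of the others in the results was not tested.

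Of the 37 measured genes, 8 fell in SOX9 knockdown cells and 0 rose (limma, Benjamini-Hochberg adjusted p under 0.05 over all genes). They were the regulators PPARGC1A and PPARA, the carnitine carrier SLC25A20, the dehydrogenase ACADVL, the enzymes ECI1 and DECR1 for unsaturated chains, the synthetase ACSL3 and the mitochondrial thiolase ACAT1. Each was lower in 3 of 3 knockdown arrays than in any control array, and their signals were 59.1% to 77.3% of control. Across all genes 8.35% were called lower and 8.41% higher, against 21.6% lower and 0% higher among the 37. The 37 genes were chosen with earlier results of these data known, so these shares are a description and not a test. The median log2 fold change was -0.11 over the 37 genes and 0.03 over all genes. The groups did not overlap for 12 genes that were lower and 2 that were higher in knockdown, where the shares over all genes were 15.5% and 16.9%. Without adjustment 11 of the 37 had a p under 0.05, a share close to that over all genes, 5312 of 18574. Of the 37 genes 34 had a mean log2 signal of at least 5, and ACADL, ACOX2 and ACSL6 lay under it. Over all genes 11702 of 18574 reached 5, so the shares above compare sets of unlike signal. With genes under 5 left out, 1771 of 11702 were called lower and 1887 higher, against 8 and 0 of the 34. At a limit of 6 it was 1696 and 1887 of 9563, against 8 and 1 of 32.

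**Figure D1:**
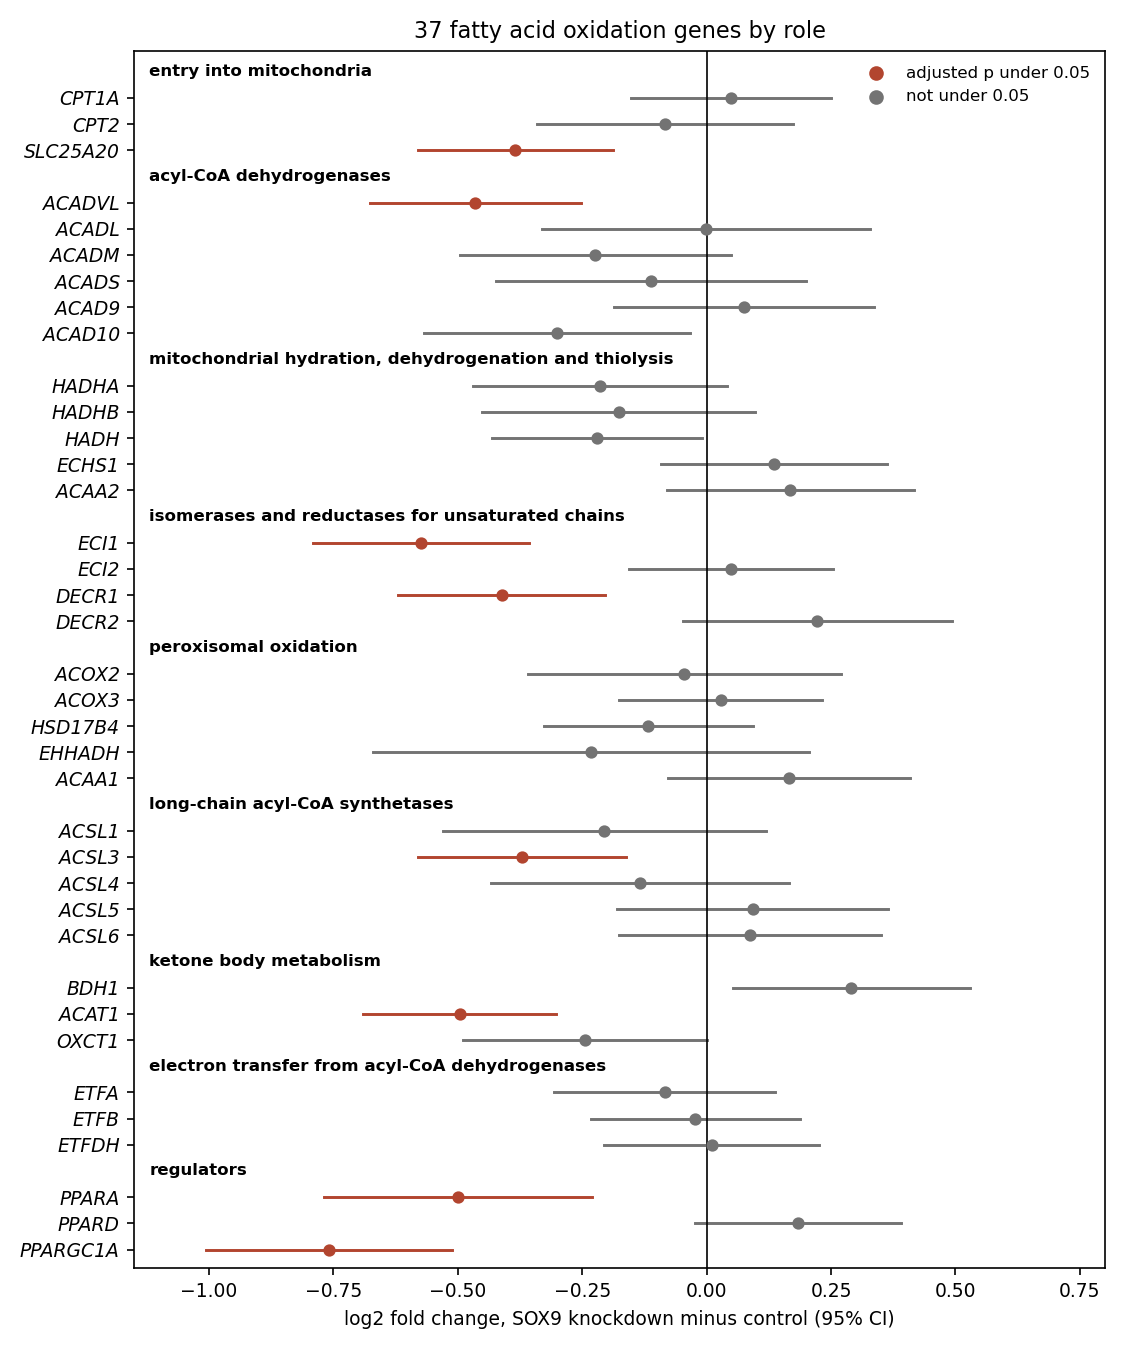
Log2 fold change (SOX9 knockdown minus control) of the 37 measured genes, grouped by role, with the 95% confidence interval of the limma fit on the horizontal axis. Red points mark the 8 genes with adjusted p under 0.05, all below 0, from -0.37 for ACSL3 to -0.76 for PPARGC1A.

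The counts depended on whether the spike-in level was a covariate. With that level as a covariate, 1 of the 37 genes passed, PPARGC1A (log2 fold change -0.69, limma adjusted p = 0.0434). The other 7 kept log2 fold changes between -0.38 and -0.63, with adjusted p from 0.0546 for ACAT1 to 0.109 for SLC25A20. Without knockdown array 1 the count was 5. PPARGC1A, ECI1, ACAT1 and ACADVL passed whichever single array was left out.

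Among the regulators, PPARGC1A and PPARA fell and PPARD did not pass. PPARGC1A, the coactivator that drives mitochondrial gene programmes, lies on chromosome 4, band p15.1. It read 7.81, 7.79 and 7.68 in knockdown arrays, against 8.44, 8.72 and 8.39 in control arrays. All knockdown values lay below all control values. The log2 fold change was -0.76 (SE 0.11, 95% CI -1.01 to -0.51, limma adjusted p = 0.00180), which left 59.1% of the control signal. Of the 37 genes it changed most, and all 4 of its probe sets fell, by 0.64 to 0.76. In 2 of these the mean signal was under 5, a range in which RMA compresses differences.

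PPARA, the fatty acid-sensing nuclear receptor, lies in band q13.31 of chromosome 22. It read 7.51, 7.45 and 7.23 in knockdown arrays, against 7.91, 7.71 and 8.07 in control arrays. The groups did not overlap, with the closest approach between knockdown array 1 and control array 2. The log2 fold change was -0.50 (SE 0.12, limma adjusted p = 0.0184). Its 9 probe sets disagreed. The one that represents the gene and another fell, by 0.50 and 0.51, while the other 7 ranged from -0.28 to 0.21 and none of them passed. The 2 that fell had the highest mean signals, 7.65 and 6.97. Of the 9, only 5 had a mean signal of at least 5, below which RMA compresses differences. The mean of all 9 changed by -0.12, with adjusted p = 0.449. Adjusted p was 0.0688 without knockdown array 3, 0.0604 without control array 1 and 0.116 without moderation of the variance. PPARD, a related receptor found in most tissues, read 6.43, 6.29 and 6.26 in knockdown and 6.13, 6.12 and 6.18 in control arrays. All 3 knockdown values were higher, but the log2 fold change of 0.18 did not pass (adjusted p = 0.237).

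Promoter windows, from 250 bases before to 50 after an annotated start, were available from RefSeq (build GRCh38.p14) for 31 of the genes, 52 windows in all. The core ACAATG that SOX factors bind was searched on both strands and occurred in 2 of the 52 windows, 3.85%, against 10.8% of all 35116 windows. The 2 were windows of PPARGC1A and ACSL1. They are shown because they hold a match, beside the other window of PPARGC1A, the gene that changed most. Among those of the 8 called genes that had a window, only PPARGC1A held a match. The windows of PPARA, which also fell, held none and are not shown. Capitals mark ACAATG or its reverse complement CATTGT, and every line runs 5′ to 3′ on the gene's strand.
PPARGC1A, upstream start, chr4:24472856-24473155, minus strand: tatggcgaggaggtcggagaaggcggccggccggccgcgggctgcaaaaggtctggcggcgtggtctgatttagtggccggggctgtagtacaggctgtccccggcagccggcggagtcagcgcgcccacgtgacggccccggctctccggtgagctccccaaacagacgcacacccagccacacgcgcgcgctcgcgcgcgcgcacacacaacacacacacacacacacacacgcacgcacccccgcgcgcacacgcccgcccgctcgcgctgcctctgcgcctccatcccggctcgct
PPARGC1A, downstream start, chr4:23881052-23881351, minus strand: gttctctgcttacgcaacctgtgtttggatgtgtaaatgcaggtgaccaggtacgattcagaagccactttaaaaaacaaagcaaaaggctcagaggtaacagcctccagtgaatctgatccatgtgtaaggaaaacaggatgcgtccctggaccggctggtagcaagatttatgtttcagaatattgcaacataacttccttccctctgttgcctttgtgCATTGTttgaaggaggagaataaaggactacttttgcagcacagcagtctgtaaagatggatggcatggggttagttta
ACSL1, one of 5 starts, chr4:184815075-184815374, minus strand: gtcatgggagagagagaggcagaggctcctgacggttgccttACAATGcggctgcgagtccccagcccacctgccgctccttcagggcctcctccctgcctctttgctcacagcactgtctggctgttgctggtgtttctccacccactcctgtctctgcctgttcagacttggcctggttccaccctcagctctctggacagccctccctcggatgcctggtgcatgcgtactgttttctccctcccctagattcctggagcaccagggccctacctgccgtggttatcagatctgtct
In PPARGC1A the match began 29 bases before the downstream start, and the upstream window held none. In ACSL1 it began 208 bases before the start of the window shown. The half-site AGGTCA of nuclear receptors occurred in 4 of the 52 windows, those of ACAD10, ACSL5 and ACSL6, and in 13.8% of all windows. The repeat AGGTCANAGGTCA, bound by PPARA with its partner RXR, occurred in 0 of the 52 and in 8 of all windows. A match is a string of letters and not a measured site.

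**Figure D2:**
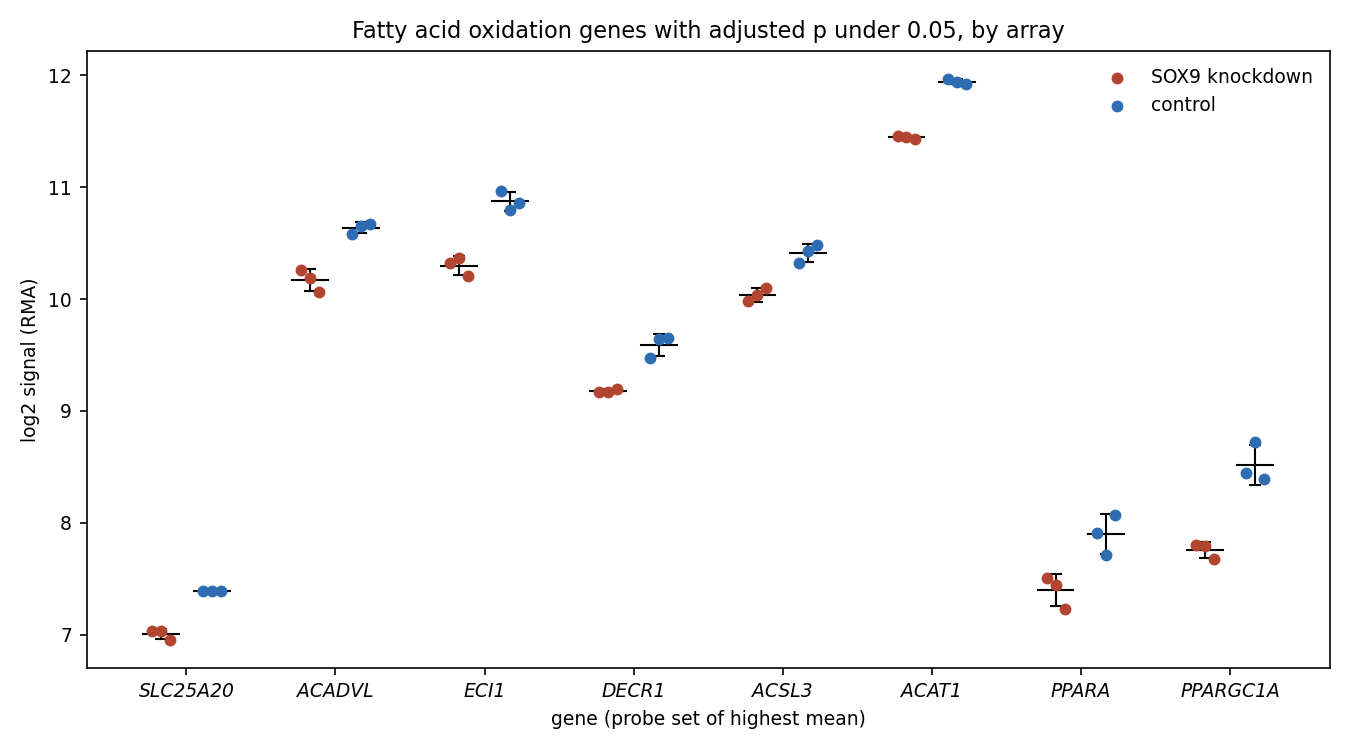
Log2 signal (vertical axis) on each array of the 8 genes with adjusted p under 0.05, SOX9 knockdown in red and control in blue. Horizontal lines are means and bars are SD of 3 arrays, and for each gene the 3 knockdown values lie below the 3 control values.

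Of the carnitine route into mitochondria, the carrier fell and both acyltransferases did not pass. SLC25A20, the carnitine-acylcarnitine translocase of the inner membrane, on chromosome 3, band p21.31, read 7.03, 7.03 and 6.95 in knockdown arrays, against 7.39, 7.39 and 7.39 in control arrays. The control values were nearly equal and all lay above the knockdown values. The log2 fold change was -0.38 (SE 0.09, limma adjusted p = 0.0140), or 76.6% of control. Another probe set fell by 0.54 and a further one, at -0.30, did not pass. The call was lost with some arrays left out, with adjusted p = 0.0561 without knockdown array 1, 0.0526 without knockdown array 3 and 0.0503 without control array 1.

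CPT1A, the outer membrane acyltransferase that sets the rate of entry, read 10.60, 10.70 and 10.62 in knockdown and 10.61, 10.53 and 10.63 in control arrays. These values overlapped and were among the tightest of the 37 genes. The log2 difference was 0.05, with a 95% CI from -0.15 to 0.25 (limma adjusted p = 0.797). Its second probe set read -0.07. CPT2, the inner membrane acyltransferase, differed by -0.08, with a 95% CI from -0.34 to 0.17 and overlapping groups.

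Among 6 measured acyl-CoA dehydrogenases, which carry out the first oxidation, ACADVL fell and 5 did not pass. ACADVL acts on the longest chains and lies on chromosome 17, band p13.1. It read 10.26, 10.19 and 10.07 in knockdown arrays, against 10.58, 10.66 and 10.67 in control arrays. The gap between the groups was wider than the range within either. The log2 fold change was -0.47 (SE 0.09, 95% CI -0.68 to -0.25, limma adjusted p = 0.00842), or 72.4% of control. All 3 probe sets fell, by 0.47, 0.52 and 0.73, with no overlap of groups in any.

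ACADM, the medium-chain enzyme, read 9.73, 9.67 and 9.79 in knockdown and 9.76, 10.20 and 9.90 in control arrays. Control array 1 lay within the knockdown range, and the log2 difference of -0.22 did not pass (adjusted p = 0.274). All 7 of its probe sets were below 0, from -0.44 to -0.22, and none passed. For the short-chain enzyme ACADS the 2 probe sets read -0.11 and -0.56, neither of which passed. ACAD10, an enzyme with a broader and less settled substrate range, differed by -0.30 with groups that did not overlap (unadjusted p = 0.0307, adjusted p = 0.125). ACAD9, which also assembles respiratory complex I, differed by 0.08. ACADL, the long-chain enzyme, read under 5 on every array and probe set, at 3.94 ± 0.29 in knockdown and 3.94 ± 0.15 in control (SD, n = 3 each), so a difference could be missed.

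The later steps of the mitochondrial cycle did not pass on the probe set that represents each gene. HADHA and HADHB, the alpha and beta subunits of the trifunctional protein that hydrates, oxidises and cleaves long-chain intermediates, differed by -0.21 and -0.18. HADHA read 11.12, 11.10 and 10.89 in knockdown and 11.13, 11.19 and 11.43 in control arrays. Knockdown array 1 and control array 1 were almost equal, although the groups did not overlap. A second HADHA probe set fell by 0.64 (limma adjusted p = 0.00631 across probe sets). It read 9.75, 9.87 and 9.91 in knockdown and 10.59, 10.53 and 10.34 in control arrays. Probe sets of HADHA thus gave different calls, and 2 more read -0.34 and 0.12 without passing. The 5 probe sets of HADHB lay between -0.31 and -0.05.
The genes of the 2 subunits start 307 bases apart on opposite strands of chromosome 2, and their promoter windows share the stretch shown here, printed on the plus strand because it precedes both genes.
HADHA and HADHB, chr2:26244689-26244882: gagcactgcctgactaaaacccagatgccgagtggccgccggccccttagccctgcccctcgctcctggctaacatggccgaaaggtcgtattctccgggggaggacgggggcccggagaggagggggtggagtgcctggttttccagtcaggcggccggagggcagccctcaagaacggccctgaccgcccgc
HADH, the hydroxyacyl-CoA dehydrogenase for shorter chains, differed by -0.22 with no overlap of groups (unadjusted p = 0.0420, adjusted p = 0.154). ECHS1, the short-chain hydratase, and ACAA2, the mitochondrial thiolase, lay on the other side at 0.14 and 0.17. Neither passed. The electron transfer flavoprotein ETFA and ETFB and its dehydrogenase ETFDH, which pass electrons from the dehydrogenases to ubiquinone, differed by -0.08, -0.02 and 0.01. On these probe sets the 95% CIs together spanned -0.31 to 0.23. Second probe sets of ETFA and ETFDH read -0.13 and 0.33, and neither passed.

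Double bonds need auxiliary enzymes, of which ECI1 and DECR1 fell and ECI2 and DECR2 did not pass. ECI1, the mitochondrial enoyl-CoA isomerase, on chromosome 16, band p13.3, read 10.32, 10.37 and 10.20 in knockdown arrays, against 10.97, 10.79 and 10.86 in control arrays. All knockdown values lay below all control values. The log2 fold change was -0.57 (SE 0.10, 95% CI -0.79 to -0.36, limma adjusted p = 0.00350), or 67.1% of control. Among the enzymes this was the largest change on the probe sets that represent them. Other probe sets of EHHADH, ACADVL, ACSL1 and HADHA fell further, by 0.64 to 0.75. ECI1 and DECR1 had 1 probe set each. DECR1, the mitochondrial dienoyl-CoA reductase, read 9.17, 9.17 and 9.20 in knockdown and 9.48, 9.65 and 9.65 in control arrays. The groups did not overlap, and the log2 fold change was -0.41 (SE 0.09, limma adjusted p = 0.0137). It did not pass without knockdown array 1 (0.0618) or without knockdown array 2 (0.0503).

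ECI2, an isomerase found in both organelles, read 10.34, 10.31 and 10.33 in knockdown and 10.21, 10.26 and 10.38 in control arrays, a log2 difference of 0.05 (95% CI -0.16 to 0.25). DECR2, the peroxisomal reductase, differed by 0.22 (95% CI -0.05 to 0.49, adjusted p = 0.275). The difference between the genes of a pair was not tested, because the pairs were picked with the results known.

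Over all 6 peroxisomal enzymes, DECR2 included, 0 passed in either direction and the median log2 fold change was -0.01. Of 19 measured mitochondrial enzymes and carriers 4 fell and 0 rose, with a median of -0.11. The 19 leave out ECI2, the synthetases and the ketone body genes, and so the mitochondrial ACAT1, which fell. Across all genes, those of low signal included, 8.35% were called lower, and the difference between the organelles was not tested. ACOX3 and ACOX2, acyl-CoA oxidases of branched chains, differed by 0.03 and -0.04, and ACOX2 read under 5 in both groups. HSD17B4, the multifunctional enzyme of very long and branched chains, differed by -0.12, and its 3 probe sets lay between -0.15 and -0.04. The 6 probe sets of the thiolase ACAA1 all lay above 0, from 0.01 to 0.18, and none passed.

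EHHADH, the other peroxisomal multifunctional enzyme, depended on the probe set. The probe set that represents it read 6.97, 6.79 and 7.31 in knockdown and 6.90, 7.69 and 7.18 in control arrays. These groups overlapped, the spread within groups was the widest of the 37 genes (pooled SD 0.34), and the log2 difference was -0.23 (adjusted p = 0.516). The other 2 probe sets fell by 0.69 and 0.75 (limma adjusted p = 0.0303 and 0.0204 across probe sets). One of them read 5.12, 5.08 and 5.33 in knockdown, against 6.27, 5.95 and 5.56 in control arrays, without overlap. The mean of the 3 changed by -0.56 (adjusted p = 0.0203 over all genes).

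**Figure D3:**
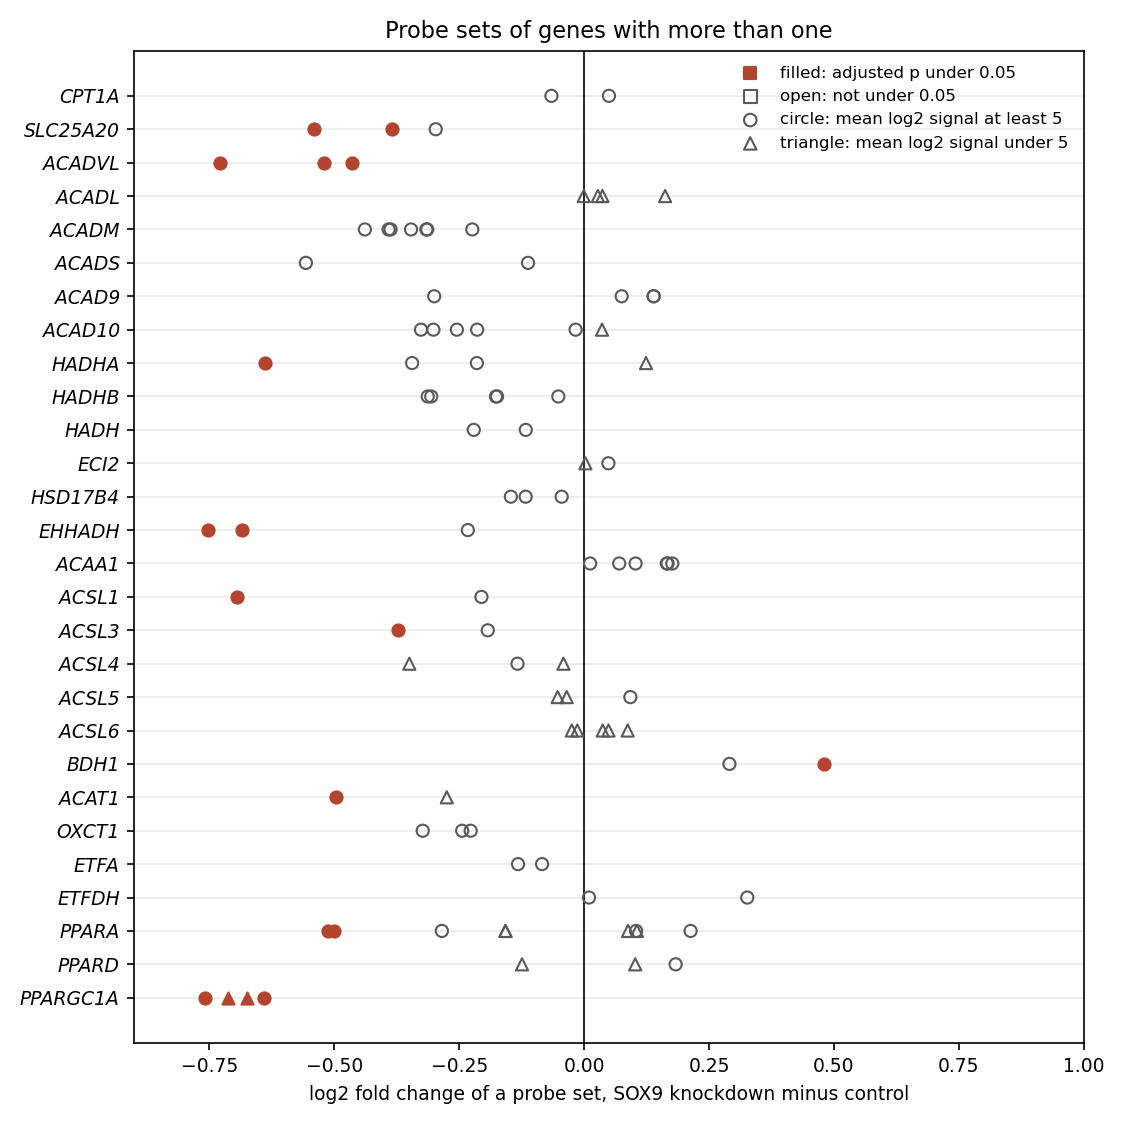
Log2 fold change of each probe set (horizontal axis, SOX9 knockdown minus control) for the 28 genes with more than 1 probe set. Filled marks passed at adjusted p under 0.05 over all probe sets and triangles had a mean signal under 5. The 3 marks of ACADVL and the 4 of PPARGC1A are all filled. SLC25A20, HADHA, EHHADH, ACSL1, ACSL3, BDH1, ACAT1 and PPARA hold filled and open marks.

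Of 107 probe sets of the 37 genes, 19 fell and 1 rose, or 17.8% lower. Of all 49293 probe sets 12.6% were called, 6.68% lower and 5.94% higher. With probe sets of mean signal under 5 left out, 3708 of 27783 were called lower and 3434 higher, against 21 and 1 of 81. In the main fit the 20 called probe sets of the 37 genes belonged to 12 genes. Beside the 8 genes called on the probe set that represents them, HADHA, EHHADH and ACSL1 each had a fall on another probe set, and BDH1 had the rise. All probe sets of a gene lay below 0 for 15 of the 28 genes with more than 1, and all lay above 0 for 4. Probe sets of 1 gene share its transcripts and are not independent, and 2 of ACAD9 held identical values.

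Among 5 long-chain acyl-CoA synthetases, which activate fatty acids for any use, ACSL3 fell. ACSL3, an enzyme of the endoplasmic reticulum and lipid droplets, lies in band q34 to q35 of chromosome 2. It read 9.98, 10.03 and 10.10 in knockdown arrays, against 10.32, 10.43 and 10.48 in control arrays. The groups did not overlap, and the log2 fold change was -0.37 (SE 0.09, limma adjusted p = 0.0222). Its other probe set read -0.19 and overlapped between groups (adjusted p = 0.500). Adjusted p was 0.106 without knockdown array 1, 0.0713 without knockdown array 2 and 0.0546 without control array 2. ACSL3 and SLC25A20 each passed in 3 of the 6 fits that left out 1 array.

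ACSL1, the main synthetase of liver and fat, was read differently by 2 probe sets. The one that represents the gene read 9.07, 9.01 and 9.18 in knockdown and 8.94, 9.39 and 9.53 in control arrays, overlapping, with a log2 difference of -0.21 (adjusted p = 0.418). The other read 6.58, 6.96 and 7.10 in knockdown, against 7.53, 7.71 and 7.48 in control arrays, and fell by 0.69 (limma adjusted p = 0.0146 across probe sets). ACSL4, which prefers arachidonic acid, differed by -0.13, and ACSL5, a mitochondrial and endoplasmic reticulum form, by 0.09. ACSL6, known from brain, read 3.03 ± 0.15 in knockdown and 2.94 ± 0.16 in control arrays (SD, n = 3 each), near the floor of the array.

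Of the 3 ketone body genes, ACAT1 fell. ACAT1, the mitochondrial acetoacetyl-CoA thiolase that serves both the making and the use of ketone bodies and isoleucine breakdown, lies on chromosome 11, band q22.3. It read 11.46, 11.45 and 11.43 in knockdown arrays, against 11.97, 11.94 and 11.92 in control arrays. It had the smallest spread within groups of the 37 genes (pooled SD 0.02). The log2 fold change was -0.50 (SE 0.09, 95% CI -0.69 to -0.30, limma adjusted p = 0.00406), or 70.9% of control. Adjusted p stayed between 0.00703 and 0.0229 with any single array left out. A second probe set of ACAT1, with a mean signal of only 3.51, read -0.27 with overlapping groups. It did not pass (limma adjusted p = 0.199 across probe sets).

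OXCT1, the transferase that lets tissues outside the liver burn ketone bodies, read 9.62, 9.76 and 9.79 in knockdown and 10.11, 10.00 and 9.79 in control arrays. Knockdown array 3 and control array 3 were almost equal, and the log2 difference of -0.24 did not pass (adjusted p = 0.176). Its 3 probe sets all lay below 0, from -0.32 to -0.23. BDH1, the dehydrogenase that interconverts acetoacetate and hydroxybutyrate, read 6.51, 6.68 and 6.55 in knockdown and 6.30, 6.14 and 6.44 in control arrays. All knockdown values were higher, at a log2 difference of 0.29 with adjusted p = 0.0962. Its second probe set rose by 0.48 (limma adjusted p = 0.0272 across probe sets), and the first passed without control array 3 (adjusted p = 0.0481).

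**Figure D4:**
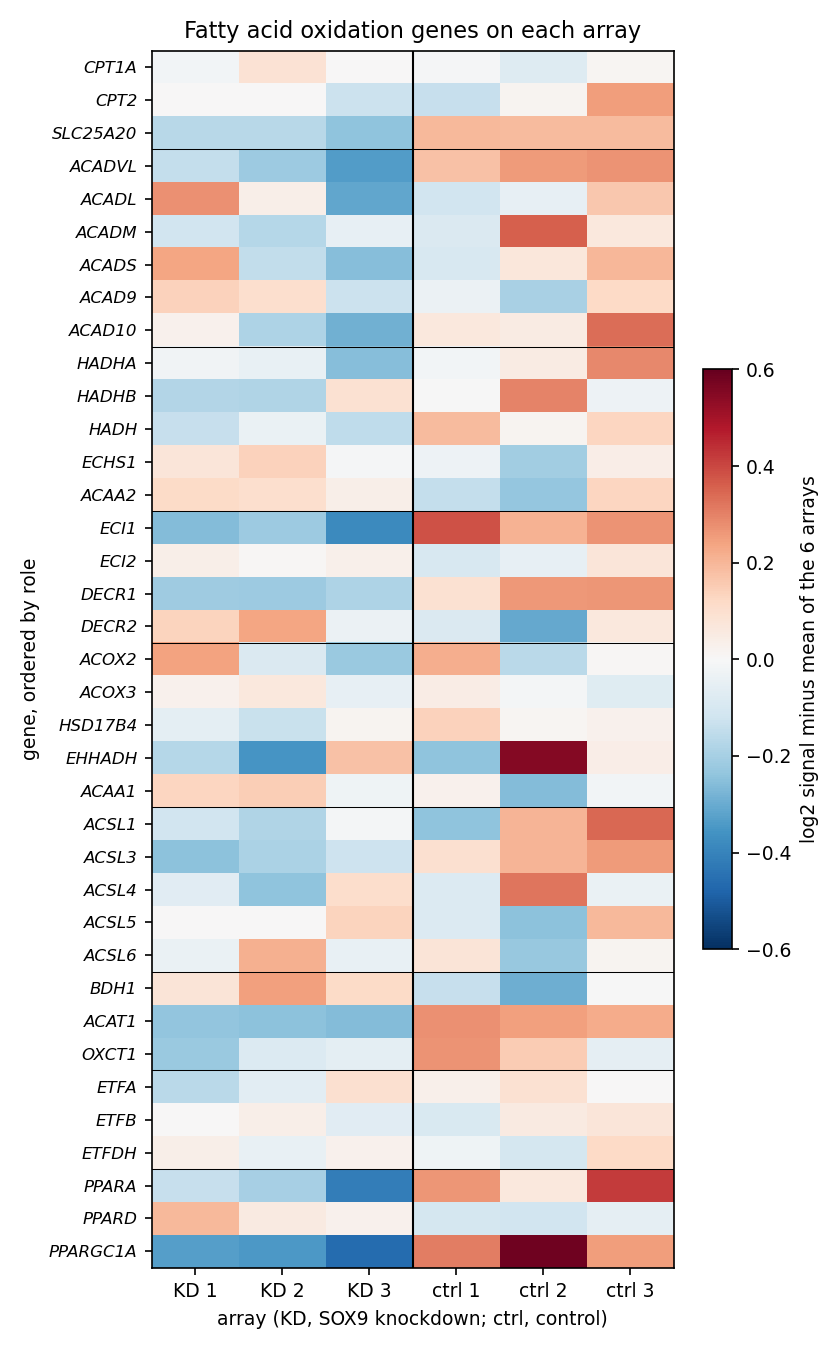
Log2 signal of each of the 37 genes (rows, ordered by role) on each array (columns, SOX9 knockdown left of control), minus the gene's mean over the 6 arrays. The rows of SLC25A20, ACADVL, ECI1, DECR1, ACSL3, ACAT1, PPARA and PPARGC1A are blue in all knockdown and red in all control arrays, and EHHADH is darkest in control array 2.

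Deviations by array are given as a description, since the 8 genes were picked for the difference. Their mean deviation from each gene's own mean was -0.22, -0.23 and -0.30 in knockdown and 0.22, 0.25 and 0.27 in control arrays. Over the 37 genes it was -0.03, -0.06 and -0.10 in knockdown and 0.03, 0.05 and 0.12 in control arrays.

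Genes around the pathway went both ways. Of 86 measured genes of fatty acid uptake, other acyl-CoA enzymes, carnitine and peroxisomal transport, peroxisome assembly and ketone bodies, 12 fell and 7 rose, 14.0% and 8.14%, with a median log2 fold change of -0.07. Across all genes 8.35% were called lower and 8.41% higher, so the share that rose was close to that over all genes. This list and that of PPARA targets below were chosen with earlier results of these data known. ACSM3 and ACSF2, mitochondrial synthetases for medium-chain acids, fell by 1.17 (SE 0.10) and 1.13 (SE 0.10), more than any of the 37 genes above. ACSM3 read 5.24 ± 0.12 in knockdown and 6.41 ± 0.05 in control arrays, and ACSF2 5.87 ± 0.11 and 7.00 ± 0.12 (SD, n = 3 each). NUDT7, a peroxisomal hydrolase of coenzyme A, fell by 0.73, HSD17B8, a mitochondrial dehydrogenase of fatty acid synthesis, by 0.73, and MCEE, an enzyme of propionate breakdown, by 0.62.

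Among the 7 genes that rose were SLC27A4 and ACAT2. SLC27A4, a fatty acid transport protein with synthetase activity, read 8.60, 8.50 and 8.35 in knockdown, against 7.83, 7.69 and 8.11 in control arrays, and rose by 0.61 (limma adjusted p = 0.00846). ACAT2, the cytosolic thiolase of sterol synthesis, rose by 0.81 while the mitochondrial ACAT1 fell by 0.50. Chosen after their values were seen, the acyl-CoA binding protein DBI rose by 0.56, the peroxisomal cofactor carrier SLC25A17 by 0.48, the peroxisomal carnitine acyltransferase CROT by 0.43 and the transport protein SLC27A2 by 0.43. The peroxisomal import receptor PEX7 fell by 0.59, also chosen afterwards.

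Of 43 measured targets of PPARA, cofactors and fuel regulators, 5 fell and 5 rose, 11.6% each, with a median of 0.02. The shares across all genes were 8.35% lower and 8.41% higher. PDK4, the kinase that shuts pyruvate dehydrogenase and a target of PPARA, read 10.01, 9.91 and 10.06 in knockdown, against 10.53, 10.78 and 10.74 in control arrays, and fell by 0.69 (limma adjusted p = 0.00197). ANGPTL4, CYP4A11, VNN1 and FGF21, also targets of PPARA, differed by -0.03, 0.10, -0.02 and 0.13 and did not pass. They were named after their values were seen, and VNN1 and FGF21 had mean signals under 5 in both groups. FOXO1, a fasting transcription factor, fell by 0.48, and the deacetylases SIRT1 and SIRT3 fell by 0.40 and 0.39. PPARG, the PPAR of fat cells, went the other way to PPARA, at 6.13, 5.65 and 5.97 in knockdown and 5.24, 5.16 and 5.49 in control arrays. It rose by 0.62 (SE 0.14, limma adjusted p = 0.0132). PPRC1, a relative of PPARGC1A, rose by 0.40, the mitochondrial carrier UCP2 by 0.58 and the thioredoxin reductase TXNRD1 by 0.42. With the spike-in level as a covariate, 3 of the 19 called genes of the first list and 1 of the 10 of the second still passed, all of them lower.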

How the data were processed

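RNA of 6 samples was measured on expression arrays, 3 of SOX9 knockdown and 3 of control, grouped by their titles. Per the labels' protocols, TRIzol was used for extraction and a GeneChip 3′ IVT PLUS kit for biotin labelling. The deposited values are log2 expression values of 49372 probe sets, made with RMA and the affy package per the submitters' processing notes. RMA makes the distributions of arrays equal and compresses low signals. The value table of the series matrix holds the same values. Precision is limited by the number of arrays. Not given in the sources used here are tool versions and genome build.

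Control probe sets (79) were left out. The 46240 probe sets of 1 gene were named through Entrez numbers and RefSeq (GRCh38.p14) symbols for 46035 and by the table's symbol for 205. A gene was represented by its probe set of highest mean. The main test was two-sided lmFit with eBayes from limma 3.58.1 (R 4.3.3), without covariate or filter. P-values were adjusted by Benjamini and Hochberg's method across 18574 genes or 49293 probe sets. The fit was tested on simulated data. Tables and plots used Python 3.11.15, pandas 2.3.3 and matplotlib 3.10.9. The members and lists were chosen with earlier results of these data known. Named were all measured members, SOX9, and up to 8 called genes of each of 2 further lists by size of change. Not every gene meeting this rule, and not every probe set shared between genes, is reported here. Some further genes of these lists were named after their values were seen. Alternatives changed the probe set of a gene, signal filter, scaling, variance model, array weights, replicate block, spike-in covariate and the arrays used. A further alternative took the same values from the series matrix.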

Additional observations from a re-analysis of the deposited data

How the results depend on the processing

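Under the 20 alternatives, the direction of all 8 called genes held, while their calls and the counts moved. The alternative that took the series matrix values could change nothing, because those values are the same. For ECI1 and DECR1, with 1 probe set each, the choice of probe set could not change the fold change. The count over all genes was 3114, against 1240 without moderation of the variance, 767 with the spike-in level as covariate and between 1758 and 3563 with 1 array left out. For the 37 genes the count of 8 became 1 with the spike-in covariate and lay between 5 and 9 with 1 array left out. Of their 107 probe sets 20 were called, against 3 without moderation, 2 with the spike-in covariate and between 8 and 23 with 1 array left out. The fit with 9 calls, without control replicate 3, added BDH1, higher in knockdown.

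No pairing of samples by replicate number was seen. Same-numbered arrays deviated oppositely (r = -0.20, -0.42 and -0.35 over genes), and each array correlated best with another number. Knockdown array 1 matched control array 3 best (r = 0.27), knockdown array 2 control array 1 (0.37) and knockdown array 3 control array 2 (0.50). Deviations were taken from each group's mean, which forces some correlations below 0. A pairing in this other order was not tested. With the replicate number as a block, 5 of the 37 genes and 9 of the 107 probe sets were called, and 2181 of all genes. SLC25A20, DECR1 and ACSL3 were then not called.

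When probe sets were averaged by gene, ACSL3 and PPARA were not called and EHHADH, ACSL1 and BDH1 were. With the probe set of largest variance, ACSL3 was not called and HADHA, EHHADH, ACSL1 and BDH1 were. Without moderation of the variance, PPARA was not called.

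Signs turned only for genes of the 37 that were not called. CPT1A read -0.0078 with the mean of its probe sets and -0.065 with that of largest variance. ACADL read 0.056 and 0.037 in these settings and 0.12 with array weights, where ACADS read 0.017 and ETFB 0.016. ACAD9 read -0.30 with the probe set of largest variance. With the spike-in covariate, ACAD9 read -0.044, ECI2 -0.034, ACSL5 -0.072 and ETFDH -0.096. ETFDH also read -1.8e-05 with arrays centred on their medians and -0.0070 after quantile normalization. ACSL6 read -0.025 when probe sets without cross-hybridising suffixes came first. With 1 array left out, the range was -0.17 to 0.020 for CPT2, -0.14 to 0.15 for ACADL, -0.0040 to 0.16 for ACAD9, -0.18 to 0.055 for ACOX2, -0.0017 to 0.060 for ACOX3, -0.0084 to 0.21 for ACSL5, -0.0037 to 0.15 for ACSL6, -0.075 to 0.0081 for ETFB and -0.041 to 0.072 for ETFDH. The causes were not tested. Signals under 5, as for ACADL, ACOX2 and ACSL6, limit what differences can be seen.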

Other observations

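Probe sets assigned to several genes were left out of the comparison. A probe set that lists CPT1A beside RDH5 and a readthrough transcript of RDH5 read 6.87, 6.95 and 6.72 in knockdown, against 7.36, 7.14 and 7.66 in control arrays (log2 fold change -0.54, limma adjusted p = 0.0368 over all probe sets). The 2 probe sets of CPT1A alone read 0.05 and -0.07, and the values of the shared probe set cannot be given to either gene.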
